A study of Mus musculus with 20 samples.

Results

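The 10 neutrophil granule genes examined here were *Elane*, *Mpo*, *Prtn3* and *Ctsg*, which encode the contents of granules formed first, and *Ltf*, *Lcn2*, *Camp*, *Ngp*, *Mmp8* and *Mmp9*, which encode the contents of granules formed later. They were chosen by symbol, and all 10 were found among the 16003 genes of the single-cell count table. Their unique molecular identifiers (UMIs, each standing for 1 captured transcript) were summed in each of the 14 deposited clusters and in each of the 6 libraries, with most attention to cluster 8, which the study named intermediate progenitors, and cluster 9, which it named neutrophils. The early genes gave 3759 UMIs in 354 cells and the late genes 93536 UMIs in 2307 cells, of 21016 cells in all.

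Neutrophils arise in the bone marrow from dividing myeloblasts, promyelocytes and myelocytes, and then stop dividing as metamyelocytes, band cells and segmented cells. Granule proteins are made in waves along this path. The serine proteases and myeloperoxidase of azurophil granules come at the promyelocyte stage. Lactoferrin, lipocalin 2 and cathelicidin of specific granules follow at the myelocyte and metamyelocyte stage, and the gelatinase of the last granules later still. A mature neutrophil carries the early proteins but has largely lost their transcripts, so the transcripts found in a cell mark the stage at which it was caught.

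All mice were 8 to 10 week old C57BL/6J females on vehicle chow or on chow with 1200 ppm PLX5622, an inhibitor of the Csf1r receptor that depletes microglia, from 2 weeks before surgery to the end point. They received a T9 laminectomy (sham) or a T9 contusion (spinal cord injury, SCI, 75 kdyne), and 1 cm of unperfused cord with its meninges was dissociated, so that blood cells inside vessels could be caught, and myelin debris and dead cells were removed. The 6 libraries were sham vehicle, 7 days post-injury (dpi) vehicle, 28 dpi vehicle, sham PLX5622, 7 dpi PLX5622 and 28 dpi PLX5622, each pooled from 3 to 4 mice, with the shams labelled as days 7 and 28 together. Each condition was therefore 1 library, no test between conditions was possible, and every interval below is a 95% interval for counting error only, which does not cover differences between mice or the chance of catching a rare cell. The libraries held between 492 and 9846 cells and between 2606149 and 35694246 UMIs. The PLX5622 libraries were the smallest, with 7, 10 and 16 cells in cluster 8 and 11, 12 and 32 in cluster 9, against 29, 307 and 248 and 64, 223 and 189 in the vehicle libraries (sham, 7 dpi and 28 dpi). Cluster 9 held the highest level of 5 of 5 detected neutrophil markers. Cluster 8 was led by cell cycle genes (*Top2a*, *Mki67*, *Birc5*), and 3 of 4 detected markers of the study's name for it were highest there, but 3 of those 4 are general markers of dividing cells and the neural one, *Sox11*, was highest in cluster 11, so it is called the cycling cluster here. In all, 46 barcodes occurred in more than 1 library, 3 of them in cells of clusters 8 and 9.

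The promoters of the 2 groups are shown because the groups differed in the cells that held them. For 9 of the 10 genes the RefSeq table (GRCm38.p6) gave a promoter, and the 250 bases before each start were searched on both strands for the letters GGAAGT, a core bound by PU.1, the myeloid factor, for TTNNGNAA, a core bound by C/EBP factors, and for AACGG, a core bound by MYB. GGAAGT was present in 4 of 4 early promoters and in 1 of 5 late ones (*Mmp8*), against 19.7% of 32851 promoters of the same length. TTNNGNAA was present in 0 of 4 early and 4 of 5 late promoters (*Ltf*, *Lcn2*, *Ngp* and *Mmp8*, not *Camp*), against 36.8% of all. AACGG was present in *Elane* and *Prtn3* alone among them, against 14.5% of all. The stretches below run 5′ to 3′ on the strand of the gene, and capitals mark GGAAGT or TTNNGNAA on either strand. They end where an annotated exon of the gene begins (GENCODE vM21), except that of *Mmp8*. It is the full 250 bases and ends at the RefSeq start, which lies before the annotated gene. *Elane* (chr10:79886062-79886246, plus strand), *Prtn3* (chr10:79879417-79879613, plus strand) and *Ctsg* (chr14:56102575-56102824, minus strand) stand for the early genes, and *Ltf* (chr9:111019042-111019270, plus strand), *Ngp* (chr9:110419558-110419746, plus strand) and *Mmp8* (chr9:7558179-7558428, plus strand) for the late ones. The *Prtn3* stretch lies in an intron of the annotated gene, which has a longer transcript that begins upstream of it, and ends before the first exon of a shorter transcript.
Elane: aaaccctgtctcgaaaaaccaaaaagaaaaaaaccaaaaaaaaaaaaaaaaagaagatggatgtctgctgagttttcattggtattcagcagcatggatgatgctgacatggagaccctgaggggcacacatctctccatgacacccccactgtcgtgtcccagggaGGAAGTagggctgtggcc
Prtn3: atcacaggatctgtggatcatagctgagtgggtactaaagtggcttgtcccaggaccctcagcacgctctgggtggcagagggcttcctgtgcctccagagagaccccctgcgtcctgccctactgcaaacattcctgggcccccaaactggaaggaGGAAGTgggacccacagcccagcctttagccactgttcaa
Ctsg: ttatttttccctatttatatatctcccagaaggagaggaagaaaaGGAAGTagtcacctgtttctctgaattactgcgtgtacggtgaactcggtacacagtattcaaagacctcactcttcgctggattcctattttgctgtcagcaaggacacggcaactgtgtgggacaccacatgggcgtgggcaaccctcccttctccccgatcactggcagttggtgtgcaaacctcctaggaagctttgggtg
Ltf: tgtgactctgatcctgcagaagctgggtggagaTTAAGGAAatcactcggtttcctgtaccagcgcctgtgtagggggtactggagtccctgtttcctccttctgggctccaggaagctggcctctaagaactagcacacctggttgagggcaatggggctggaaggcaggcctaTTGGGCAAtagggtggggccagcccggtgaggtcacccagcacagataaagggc
Ngp: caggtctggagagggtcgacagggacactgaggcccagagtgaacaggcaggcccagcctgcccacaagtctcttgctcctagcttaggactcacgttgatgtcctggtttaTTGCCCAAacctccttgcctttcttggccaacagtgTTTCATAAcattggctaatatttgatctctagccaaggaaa
Mmp8: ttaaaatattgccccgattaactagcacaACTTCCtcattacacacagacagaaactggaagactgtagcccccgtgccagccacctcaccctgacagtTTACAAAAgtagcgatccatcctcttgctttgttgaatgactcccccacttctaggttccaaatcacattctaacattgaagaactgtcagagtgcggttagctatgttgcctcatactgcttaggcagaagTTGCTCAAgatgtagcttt
Each early stretch holds 1 GGAAGT and no TTNNGNAA. *Ltf*, *Ngp* and *Mmp8* each hold 2 TTNNGNAA in the stretch printed, and a further one of *Ngp* lies 11 bases before its start, past the end of the stretch. These are matches of letters and not measured binding.

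Early and late granule transcripts lay mostly in 2 different clusters (plot of summed CPM by cluster). Cluster 8 held 72.1% of early UMIs and cluster 9 held 12.1%, whereas cluster 9 held 66.3% of late UMIs and cluster 8 held 29.4%. Together the clusters, which were 617 and 531 of the cells, took up 84.1% of early and 95.7% of late UMIs. The vehicle libraries carried the pooled early share: by library (sham, 7 dpi and 28 dpi) the early share was 98.0, 86.7 and 62.4% on vehicle and 0% in each PLX5622 library, where all clusters together held 12, 15 and 15 early UMIs. The late share was 91.5% or more in 5 libraries and 19.3% of 301 UMIs at 7 dpi PLX5622. Pooled over libraries, the early genes reached 633 UMIs in 1000000 UMIs (CPM) of cluster 8 and 356 CPM of cluster 9, and the late genes 6410 and 48718 CPM. By the median over libraries, the early genes ranked cluster 8 first (175 CPM), then ependymal cells (22.9 CPM), then monocytes (16.3 CPM), and the late genes cluster 9 (54064 CPM), cluster 8 (3550 CPM) and endothelial cells (97.4 CPM). For both sums the ranges over libraries of these neighbours overlapped. Without the cell of most early UMIs in each library, the early sum was 411 CPM in cluster 8 and 161 CPM in cluster 9. With each cell weighted alike the order of the clusters turned, with 727 early CPM in cluster 8 and 823 in cluster 9, and with cells thinned to 1000 UMIs it was 724 and 144 CPM.

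**Figure D1:**
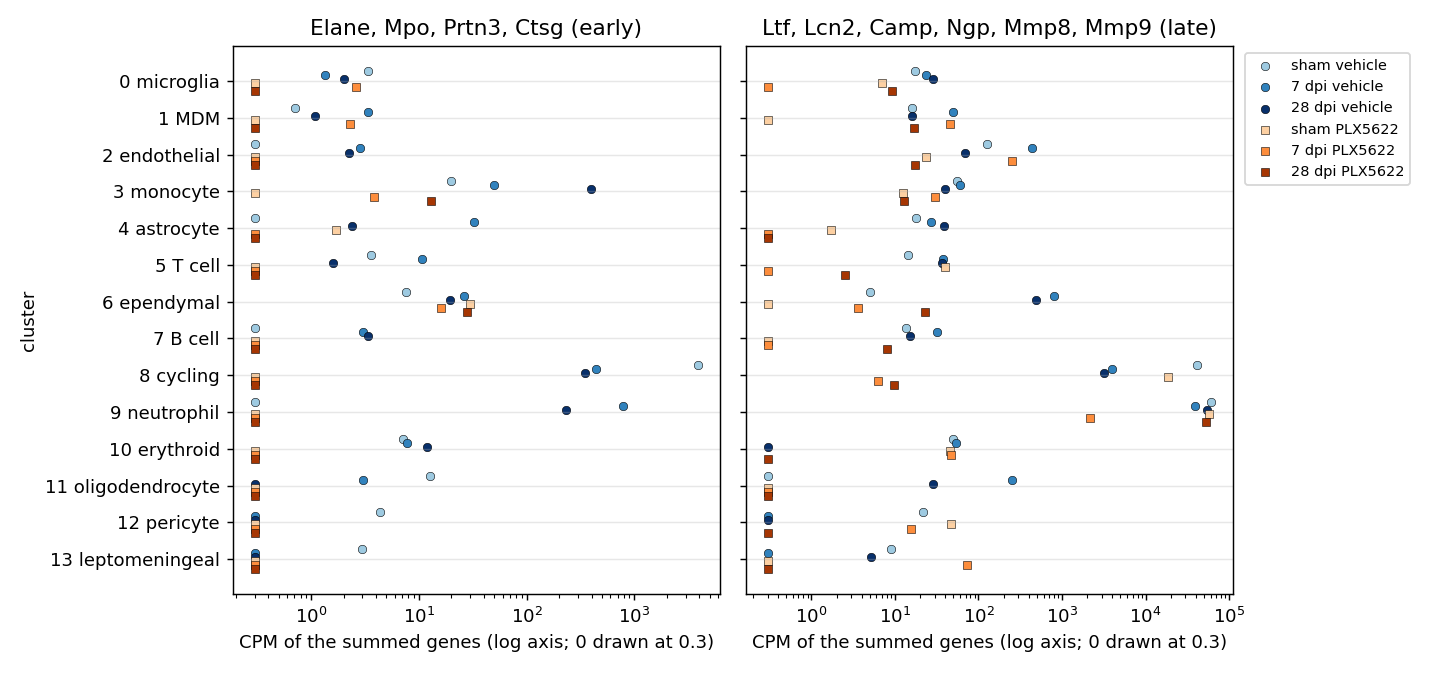
Summed CPM (log axis, 0 drawn at 0.3) of the 4 early genes (left) and the 6 late genes (right) in each of the 14 clusters, 1 point per library, circles for vehicle and squares for PLX5622. The early genes reached 3855 CPM in cluster 8 of the sham vehicle library and were at 0 there in the PLX5622 libraries, and the late genes were highest in cluster 9 in each of the 6 libraries.

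Single genes followed this division. *Mpo* (myeloperoxidase, which makes hypochlorous acid; chr11:87793581-87804413) had 79.1% of its 887 UMIs in cluster 8 and 9.36% in cluster 9. *Elane* (neutrophil elastase; chr10:79886247-79888215) had 78.3% of 1100 UMIs in cluster 8, *Ctsg* (cathepsin G, a serine protease; chr14:56099881-56102574) 69.5% of 491, and *Prtn3* (proteinase 3, 3072 bases before *Elane*; chr10:79874476-79883174) 62.9% of 1281. Among the early genes *Prtn3* had the largest share outside both clusters, 25.8%. *Prtn3* overlaps *Plppr3* and *Mpo* overlaps *Gm11505*, in both cases on the other strand, and the strand setting of the counting was not given in the sources used here.

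In the late group *Mmp9* (gelatinase B; chr2:164940780-164955850) had 89.9% of 2209 UMIs in cluster 9 and 2.35% in cluster 8, and *Mmp8* (neutrophil collagenase; chr9:7558456-7568485) had 71.9% of 4721 in cluster 9 and 3.2% in cluster 8. *Camp* (cathelicidin; chr9:109847379-109849617) had the largest share of a late gene in cluster 8, 41.1% of 33197 UMIs, followed by *Ngp* (neutrophilic granule protein; chr9:110419747-110423012) with 29.8% of 32135. *Lcn2* (lipocalin 2, which binds bacterial siderophores; chr2:32384633-32388252) and *Ltf* (lactoferrin, which binds iron; chr9:111019271-111042767) had 19.6% of 12719 and 18.1% of 8555 UMIs there. *Mmp8* and *Mmp9* thus had the smallest shares in the cycling cluster, and the early genes the largest.

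The early transcripts came from few cells. Cells with at least 3 early UMIs numbered 58, and they held 91.0% of all early UMIs. The cell with the most held 536, or 14.3%, and the first 10 cells held 62.6%. Late transcripts were spread more widely: 652 cells had at least 3 and held 98.0%, the largest cell held 3584 UMIs (3.83%), and the first 10 held 21.4%. An early level in a cluster therefore turns on a few cells, and the intervals on it do not cover which cells were caught.

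In the cycling cluster of vehicle mice, the early genes were higher in the sham library than in either SCI library. *Elane* was at 1106 CPM in sham (992 to 1229), from 346 UMIs in 11 of 29 cells. At 7 dpi it was at 166 CPM (150 to 183; 403 UMIs in 17 of 307 cells), and at 28 dpi at 92.1 CPM (75.9 to 111; 112 UMIs in 10 of 248 cells). *Mpo* was at 1234 CPM in sham (386 UMIs in 4 of 29 cells), 91.3 at 7 dpi and 77.3 at 28 dpi. Both were lower after SCI by more than their counting intervals: the log2 ratio to sham was -2.74 for *Elane* (-2.95 to -2.53) and -3.76 for *Mpo* (-4.00 to -3.51) at 7 dpi, and -3.59 and -4.00 at 28 dpi.

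*Prtn3* was at 1087 CPM in sham, 127 at 7 dpi and 129 at 28 dpi, and *Ctsg* at 428, 59.6 and 51.0 CPM. Their log2 ratios to sham at 7 dpi were -3.10 (-3.32 to -2.87) and -2.85. The SCI libraries lay closer to each other than to sham: from 7 to 28 dpi the log2 ratio was 0.024 for *Prtn3* (-0.26 to 0.31), -0.22 for *Ctsg* (-0.68 to 0.21) and -0.24 for *Mpo* (-0.60 to 0.12), all with intervals over 0, and -0.85 for *Elane* (-1.16 to -0.54). As a sum the early genes were at 3855, 444 and 350 CPM. Log2 ratios to sham were -3.12 (interval -3.24 to -3.00) for 7 dpi and, for 28 dpi, -3.46 (interval -3.63 to -3.30). The sham level rested mostly on the cells with the most early UMIs, which held 536 and 449 of 1206. Without the first cell of each library the sums were 2311, 344 and 199 CPM.

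In the PLX5622 libraries the early genes were listed at 0 in cluster 8. The UMIs of the 7, 10 and 16 cells there allow up to 50.2, 18.6 and 29.4 CPM (3 UMIs of the total). Cells with at least 3 early UMIs were 0 of 7, 0 of 10 and 0 of 16, which allows shares of up to 41.0, 30.8 and 20.6%, and they were 31.0, 6.19 and 3.63% of the cluster in the vehicle libraries of the same surgery and day. Each vehicle share lay inside the interval on PLX5622, so no difference between diets was detectable with so few cells. Over all clusters, the per-library matrices held 1 *Ctsg* UMI in sham PLX5622, 1 *Mpo* UMI at 7 dpi and 2 *Ctsg* UMIs at 28 dpi that the count table does not, since rarely seen genes were set to 0 in the table library by library.

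The late genes of the cycling cluster showed the same order of the vehicle libraries. *Camp* was at 22058 CPM in sham (21540 to 22584), 1766 at 7 dpi and 1482 at 28 dpi, and *Ngp* at 14041, 1406 and 1165 CPM. *Lcn2* was at 3065, 455 and 328 CPM and *Ltf* at 2145, 239 and 183 CPM. Their log2 ratios to sham at 7 dpi ran from -2.75 for *Lcn2* (-2.88 to -2.63) to -3.64 for *Camp* (-3.70 to -3.59). *Mmp8* had the smaller log2 ratio of -1.80 (-2.37 to -1.21), from 121 CPM in sham to 34.9 CPM at 7 dpi. *Mmp9* was near its floor, at 22.4, 11.9 and 9.05 CPM from 7, 29 and 11 UMIs, and its interval at 7 dpi reached over 0 (-2.13 to 0.53). As a sum the late genes were at 41453, 3912 and 3189 CPM, with log2 ratios of -3.41 (interval -3.44 to -3.37) for 7 dpi and, for 28 dpi, -3.70 (interval -3.75 to -3.65). In sham PLX5622 all 1097 late UMIs came from 1 of 7 cells, with 648 of *Camp*, 347 of *Ngp*, 74 of *Ltf*, 23 of *Lcn2* and 5 of *Mmp9*. The SCI libraries on PLX5622 held 1 late UMI each.

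**Figure D2:**
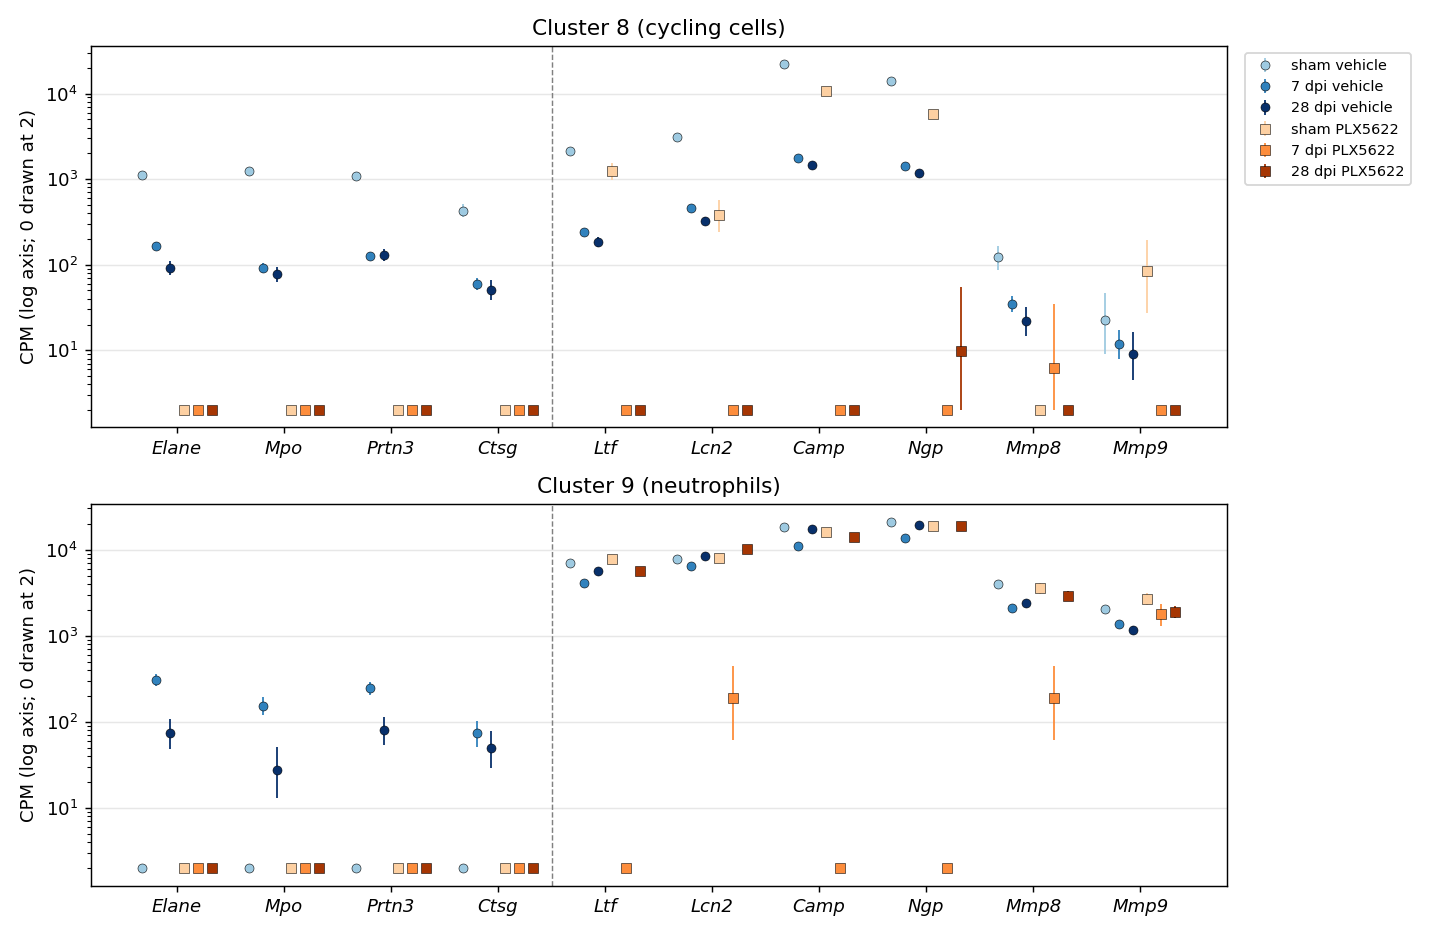
CPM (log axis, 0 drawn at 2) of each gene in cluster 8 (top) and cluster 9 (bottom), 1 point per library with its exact Poisson 95% interval, and the dashed line between early and late genes. In cluster 8 the sham vehicle point lay above both vehicle SCI points for each of the 10 genes, and in cluster 9 the late genes of the 7 dpi PLX5622 library stood apart except *Mmp9*.

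Counted against all genes, 4 of 4 early and 5 of 5 late members whose UMIs in the pair of libraries came to 100 or more were lower at 7 dpi than in sham by a log2 ratio of -1 or below, where 8.43% of 3512 genes of the cluster were. At 28 dpi it was 4 of 4 and 4 of 4, where 8.7% of 2207 genes were. Of these, *Mpo* (94 UMIs at 28 dpi) and *Ctsg* (62 UMIs) reached the minimum only through sham, with 386 and 134 UMIs. The median log2 ratio at 7 dpi was -2.97 for the early and -3.17 for the late members, and -0.00024 over all genes. At 28 dpi the medians were -3.33 and -3.57, against -0.0039.

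Other granule and neutrophil genes of the cycling cluster mostly differed in the same direction. Of 9 granule partners with enough UMIs, 6 were lower at 7 dpi: *Chil3* (log2 ratio -3.83, -3.94 to -3.73), *Serpinb1a* (an inhibitor of the early proteases, -3.38), *Hp* (haptoglobin, -3.38), *Pglyrp1* (-2.80), *Cd177* (-2.65) and *Ms4a3* (-1.28). The other 3 lay between -1 and 1: *Ctsc*, whose product activates the early proteases (0.0068), *Srgn* (0.069) and *Lyz2* (0.59). Of 4 mature neutrophil genes 3 were lower, among them *S100a8* (-3.12) and *S100a9* (-2.98). *Cebpe*, a transcription factor needed for specific granules, went from 227 to 27.5 CPM (-3.04, -3.55 to -2.54), while *Spi1*, which encodes PU.1, went from 339 to 243 CPM (-0.48, -0.78 to -0.17), *Cebpa* from 54.3 to 85.5 CPM (0.65, -0.060 to 1.46) and *Runx1* from 83.1 to 131 CPM (0.66, 0.080 to 1.29). Of these 4 transcription factors with enough UMIs 1 was thus lower and 3 lay between -1 and 1, with a median of 0.087. The 7 detected cell cycle genes all lay between -1 and 1, with a median of -0.24. Of the remaining lists, both blood progenitor genes with 100 UMIs (*Cd34* and *Sox4*) lay between -1 and 1. The erythroid gene *Hba-a2* was lower (-3.06), and *Mcpt8* was higher, with 192 UMIs against 1. Over all libraries, 3 cells of the cluster held 240 *Mcpt8* UMIs, so this gene turned on single cells. No B cell precursor or neural progenitor gene reached 100 UMIs.

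Macrophage transcripts differed the other way in the same libraries. The 6 macrophage genes (*C1qa*, *C1qb*, *Apoe*, *Cd68*, *Csf1r* and *Gpnmb*) summed to 2873 CPM of cluster 8 in sham vehicle, 63027 at 7 dpi and 55125 at 28 dpi, and to between 19114 and 30564 CPM in the PLX5622 libraries. All 6 were higher by a log2 ratio of 1 or more at 7 dpi (median 3.24), where 15.7% of genes were, and at 28 dpi (median 3.07), where 17.2% were. A sum over a cluster cannot tell fewer granule-bearing cells from less granule RNA in each, so the cells were counted next. The part of the macrophage transcripts in the differences was not tested.

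Cells were placed in 4 classes by at least 3 UMIs of the early genes, of the late genes, of both or of neither. Of 617 cells in cluster 8, 24 had early transcripts alone, 50 late alone, 13 both and 530 neither. Any granule class took up 19 of 29 cells in sham vehicle (65.5%, exact Clopper-Pearson interval 45.7 to 82.1%). At 7 dpi the count was 45 of 307 cells, or 14.7% (10.9 to 19.1%). At 28 dpi vehicle, 22 of 248 cells had one, or 8.87% (5.64 to 13.1%). In the PLX5622 libraries it was 1 of 7 cells in sham and 0 of 10 and 0 of 16 after SCI, with upper bounds of 30.8% and 20.6%. The share was thus highest in sham vehicle, and the cells with neither made up most of the cluster after SCI. Among the vehicle libraries (sham, 7 dpi and 28 dpi) median depth fell in the same order, with 9579, 6951 and 4018.5 UMIs per cell. The classes were not recounted at equal depth. Cells with a UMI of *Ltf*, *Camp* or *Ngp* made up 41.4, 10.1 and 7.66% of the cluster in these libraries. With cells thinned to equal depth they made up 34.6, 7.19 and 5.13%, so sham stayed highest by that measure. The cut is a range and not a cell type: in clusters 8 and 9 together, 8 cells lay at 2 to 4 early UMIs and 89 at 2 to 4 late UMIs. A single gene can reach the late cut, and 12 of the 63 cells of cluster 8 past it had 1 late gene. At 7 dpi vehicle *Mmp8* was found in 39 cells of the cluster, *Camp* in 25 and *Ltf* in 18. In the same library 85 of 3023 cells of the monocyte-derived macrophage cluster reached the late cut.

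**Figure D3:**
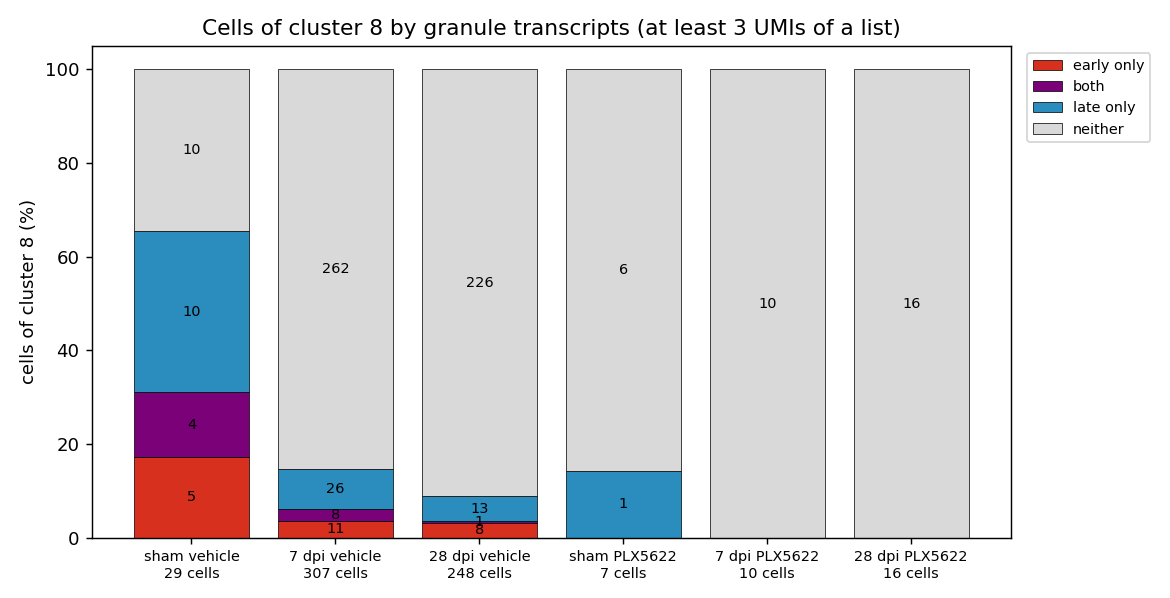
Percent of the cells of cluster 8 in each granule class (at least 3 UMIs of the early list, the late list, both or neither), 1 bar per library with the number of cells in each part. Granule classes made up 19 of the 29 sham vehicle cells, 45 of 307 at 7 dpi and 22 of 248 at 28 dpi.

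Within the early-only and the late-only class, which the same transcripts define, the vehicle libraries differed less than over the whole cluster. Early-only cells had 15000 early CPM in sham vehicle (5 cells), 9315 at 7 dpi (11 cells) and 11738 at 28 dpi (8 cells). Late-only cells had 102347 late CPM in sham (10 cells), 40267 at 7 dpi (26 cells) and 57598 at 28 dpi (13 cells), and the 1 such cell of sham PLX5622 had 103014. Among the vehicle libraries sham was highest in both classes by CPM. In the early-only class of sham, however, single cells with 536 and 449 early UMIs held most of the 1151. Cells with both, which numbered 4, 8 and 1, went the other way in early CPM, with 718 early CPM in sham, 6688 at 7 dpi and 8522 in the 1 cell at 28 dpi, and 52835, 28556 and 4900 late CPM. The number of early UMIs per cell varied widely inside a library, from 7 to 536 with a median of 20 among the 9 cells of sham vehicle with at least 3, from 5 to 246 with a median of 34 among 19 cells at 7 dpi, and from 3 to 184 with a median of 15 among 9 cells at 28 dpi.

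The classes also differed in other genes, which had no part in their choice but come from the same cells. Cell cycle genes were detected in 23 of 24 early-only, 13 of 13 both, 50 of 50 late-only and 527 of 530 remaining cells, with medians of 24.3, 26.1, 23.2 and 35.6 UMIs per 10000. *Myb*, a factor of blood progenitors, was found in 11 of 24 early-only cells (190 CPM), 8 of 13 both cells (84.2 CPM) and 6 of 50 late-only cells (8 UMIs). *Cebpe* ran the other way, at 27.2 CPM in early-only cells (4 of 24), 283 CPM in both cells (8 of 13) and 360 CPM in late-only cells (34 of 50). *S100a8*, abundant in mature neutrophils, was at 609, 56731 and 95796 CPM in these classes. *Fcnb* (ficolin B) was highest in the cells with both, at 345 CPM, against 0 in early-only and 88.0 in late-only cells. The macrophage genes were at 9200 CPM in early-only, 3048 in both, 28748 in late-only and 60207 CPM in cells with neither. Their medians were 11.2, 11.3, 16.0 and 537 UMIs per 10000, and they were detected in 23 of 24, 12 of 13, 47 of 50 and 524 of 530 cells. Macrophage transcripts were thus detected in granule-bearing cells too. They were also detected in 390 of 431 late-only cells of cluster 9, with a median of 33.3 UMIs per 10000. The classes pool libraries that differed in these genes, and the source of the transcripts was not tested. Cells with neither had 15 early UMIs among 530 cells.

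The early genes were mostly found together in a cell. All 37 cells of cluster 8 with at least 3 early UMIs had *Prtn3*, 31 had *Elane*, 31 *Ctsg* and 23 *Mpo*, and 20 had all 4 genes, 9 had 3, 7 had 2 and 1 had a single gene. *Ms4a3*, a marker of granulocyte and monocyte progenitors, was present in 19 of the 37. In 3 of them *Mcpt8*, a protease of basophils, reached at least 3 UMIs, 240 in all, and these cells had 38 *Mpo* and 34 *Ctsg* UMIs but 3 *Elane* and 3 *Prtn3* UMIs. Over all 37 cells the sums were 702, 339, 854 and 789 UMIs in the same order. These cells, chosen after their values were seen, were thus a larger part of the *Ctsg* than of the *Elane* UMIs. Late genes were less complete in the cycling cluster: of its 63 cells with at least 3 late UMIs 7 had all 6 genes and 29 had 4, while of 433 such cells in cluster 9 156 had all 6.

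**Figure D4:**
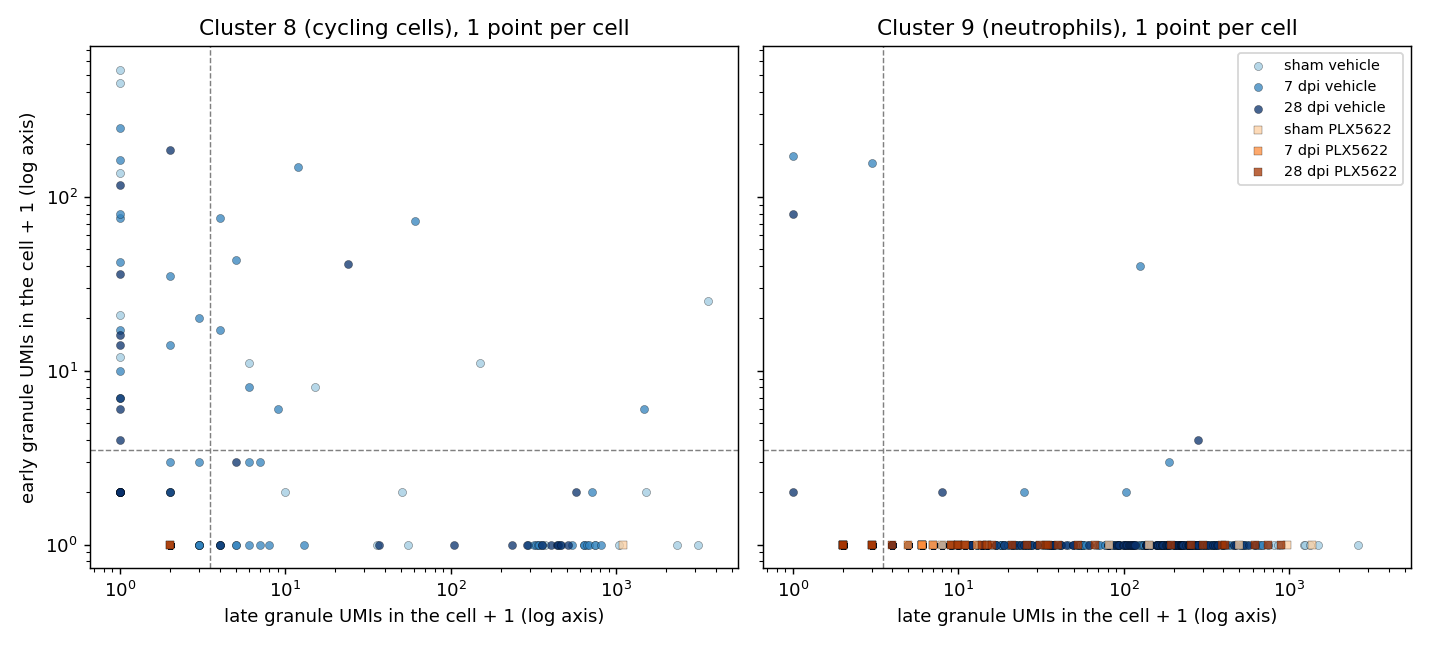
Early against late granule UMIs of each cell (UMIs + 1, log axes) in cluster 8 (left) and cluster 9 (right), coloured by library, with dashed lines below the cut of 3 UMIs. In cluster 8 most granule-bearing cells lay along one axis or the other, with 13 past both lines, and in cluster 9 5 cells lay above the early line, of which 2 were past both.

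In the neutrophil cluster the late genes were abundant in 5 of the 6 libraries. The late sum was 59778 CPM in sham vehicle, 38561 at 7 dpi, 54655 at 28 dpi, 56653 in sham PLX5622 and 53474 at 28 dpi PLX5622, and 2148 CPM at 7 dpi PLX5622. Against sham vehicle the log2 ratio was -0.63 at 7 dpi (-0.66 to -0.60) and -0.13 at 28 dpi (-0.16 to -0.10). The 7 dpi value became 0.096 with cells thinned to 1000 UMIs each, and the 28 dpi value 0.66, so no direction is given for either. Macrophage genes were at 26036 and 37892 CPM of cluster 9 in these vehicle SCI libraries and at 692 CPM in sham vehicle, and their part in the differences was not tested.

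By gene, *Ngp* had 20619 CPM in sham vehicle, 13601 at 7 dpi, 19522 at 28 dpi, 18884 in sham PLX5622 and 18935 at 28 dpi PLX5622. *Camp* had 18428, 11002, 17535, 15819 and 14003 CPM in the same order. *Lcn2* had 7778, 6390, 8401, 7946 and 10146 CPM. *Ltf* had 6953, 4071, 5638, 7800 and 5611 CPM, *Mmp8* 3977, 2118, 2379, 3542 and 2870 CPM, and *Mmp9* 2022, 1380, 1180, 2661 and 1909 CPM. For all but *Mmp9*, which was lowest at 28 dpi vehicle, the 7 dpi vehicle library was the lowest of the 5. Cells there were also shallower, with a median of 1238 UMIs against 3351.5 in sham vehicle. As the late sum changed direction with thinning, no direction is given for single genes of the vehicle libraries either. Of the late genes at 28 dpi vehicle, *Mmp8* and *Mmp9* had the lowest ratios to sham. Their log2 ratios were -0.74 (-0.87 to -0.61) and -0.78 (-0.96 to -0.59), and that of *Mmp8* at 7 dpi was -0.91 (-1.03 to -0.78). The 28 dpi ratio was -0.30 for *Ltf* (-0.39 to -0.21), which lay between, 0.11 for *Lcn2* (0.031 to 0.19), -0.072 for *Camp* and -0.079 for *Ngp*.

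None of the 6 late genes reached a log2 ratio of -1 in 4 of the 5 comparisons of cluster 9. These were 7 dpi against sham vehicle, where 4.55% of 792 genes did, 28 dpi against sham vehicle (4.01% of 649), sham PLX5622 against sham vehicle (4.15% of 313) and 28 dpi PLX5622 against 28 dpi vehicle (29.1% of 447). Their medians were -0.67, -0.19, -0.048 and 0.13, beside medians of 0.047, -0.13, -0.060 and -0.075 over all genes. Between diets the late sum differed by -0.077 in sham (-0.13 to -0.022) and by -0.032 at 28 dpi (-0.080 to 0.017). With cells thinned to 1000 UMIs each these values became -0.37 and -1.05, and the 28 dpi difference thus changed with this setting. *Mmp9* was the gene with the largest difference at 28 dpi, 0.69 higher on PLX5622 (0.42 to 0.97).

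The library of 7 dpi PLX5622 stood apart. Its 12 cells of cluster 9 held 0 UMIs of *Ltf*, *Camp* and *Ngp*, 5 of *Lcn2* and 5 of *Mmp8*, against 1926, 5205, 6435, 3023 and 1002 UMIs in 223 cells at 7 dpi vehicle. *Ngp* was at least 120-fold lower, *Camp* at least 97.3-fold and *Ltf* at least 36.0-fold, with 0 set to 3 UMIs. *Lcn2* had a log2 ratio of -5.08 (-6.71 to -3.86) and *Mmp8* of -3.49 (-5.12 to -2.26). *Mmp9* did not go with them: 47 UMIs gave 1771 CPM against 1380 CPM in vehicle, a log2 ratio of 0.36 with an interval over 0 (-0.099 to 0.79). Thus 5 of 6 late genes were lower by a log2 ratio of -1 or below, where 15.3% of 550 genes were. The median was -5.13 with the genes at 0 set to 3 UMIs, against 0.18 over all genes. The minimum of UMIs for this count applied to both libraries together, and these 5 genes reached it through the vehicle library alone. The count thus covers genes that were abundant in vehicle.

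Other neutrophil genes of these 12 cells were mixed. *S100a8* and *S100a9* were at 65383 and 57733 CPM against 110844 and 146639 in vehicle, and *Retnlg* at 1997 against 14544 CPM. *Cxcr2*, *Csf3r* and *Il1r2*, which encode receptors of mature neutrophils, were at 1055, 1470 and 565 CPM against 482, 560 and 175 CPM, log2 ratios of 1.13 (0.51 to 1.70), 1.39 (0.87 to 1.88) and 1.69 (0.79 to 2.49). The summed mature neutrophil list was at 128203 CPM, below the 273244 to 408167 CPM of the other 5 libraries, and the macrophage list at 2826 CPM. Of the granule partners *Chil3* and *Cd177* were at 0 of 26536 UMIs, against 916 and 293 UMIs in vehicle.

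Counted by cell, 46 of 64 cells of cluster 9 in sham vehicle had a UMI of *Ltf*, *Camp* or *Ngp* (71.9%, 59.2 to 82.4%), 108 of 223 at 7 dpi (48.4%), 123 of 189 at 28 dpi (65.1%), 5 of 11 in sham PLX5622 (45.5%, 16.7 to 76.6%) and 14 of 32 at 28 dpi PLX5622 (43.8%, 26.4 to 62.3%). At 7 dpi PLX5622 it was 0 of 12, with an upper bound of 26.5%. Median UMIs per cell ran from 1238 to 3534 between these libraries, so the cells were also thinned to 1000 UMIs, leaving out 169 of the 531 as shallower. The shares became 63.8, 72.0, 79.8, 45.5, 44.4 and 0%, and the order of the vehicle libraries changed with depth. Among T cells, which should lack these genes, between 0 and 4.76% had such a UMI.

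The late genes were not found in equal numbers of cells. Over cluster 9, *Mmp9* was detected in 78.0% of cells, *Lcn2* in 77.2% and *Mmp8* in 69.7%, against 54.2% for *Ngp*, 46.7% for *Camp* and 39.7% for *Ltf*. *Camp* was found in 1.33% of astrocytes, 1.57% of T cells and 1.68% of B cells at median depths of 1435.5, 1692.5 and 1584 UMIs, beside 1563 in cluster 9. A part of the neutrophils thus had *Mmp9* and none of *Ltf*, *Camp* and *Ngp*: 16 of 64 cells in sham vehicle, 72 of 223 at 7 dpi, 43 of 189 at 28 dpi, and 6 of 11, 8 of 12 and 14 of 32 in the PLX5622 libraries. The number of cells with at least 100 late UMIs was 24, 57, 75, 4, 0 and 8 in the same order.

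Early genes in the neutrophil cluster came mostly from 5 cells with at least 3 early UMIs each, among the 6 cells at 7 dpi vehicle and 4 at 28 dpi vehicle that had any. At 7 dpi vehicle *Elane* had 145 UMIs, *Prtn3* 116, *Mpo* 73 and *Ctsg* 35, and 3 cells with 170, 156 and 39 early UMIs held nearly all of them. At 28 dpi vehicle 1 cell held 79 of 84 early UMIs. The sham vehicle and PLX5622 libraries held 0, which allows up to 10.8 CPM in sham vehicle but up to 113 CPM at 7 dpi PLX5622. Cells with at least 3 early UMIs were 3 of 223 at 7 dpi (1.35%) and 0 of 64 in sham vehicle, where up to 5.6% is allowed, so their share was not detectably different. Of the 5 cells, 4 had all 4 early genes.

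Outside clusters 8 and 9 single members were found in other cell types. *Mmp8* had 963 UMIs in the cluster of monocyte-derived macrophages (MDMs), 20.4% of its total: 40.9 CPM at 7 dpi vehicle (38.1 to 43.8; 480 of 3023 cells) and 40.1 CPM at 7 dpi PLX5622 (31.2 to 50.6; 26 of 100 cells), against 4.23 CPM in sham vehicle, 4.18 at 28 dpi vehicle, 13.2 at 28 dpi PLX5622 and 0 in the 9 cells of sham PLX5622. It was higher at 7 dpi than at 28 dpi in both diets. At 7 dpi vehicle *Mmp8* was also found in 9 of 190 B cells (4.74%, 18.1 CPM) and in 4 of 58 erythroid cells (6.9%), which should lack it, against 15.9% of MDMs, at median depths of 2209, 4107 and 5777 UMIs. The erythroid level rested on 13 UMIs, and its interval of 26.6 to 85.5 CPM took in the MDM level, so by CPM the MDMs did not stand above it. In sham and at 28 dpi vehicle both cell types were at 0. The gelatinase gene *Mmp9* did not share this pattern, with 1.11 and 1.15 CPM in MDMs at 7 dpi on vehicle and PLX5622.

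*Lcn2* had 459 UMIs in the endothelial cluster, at 178 CPM at 7 dpi vehicle and 255 CPM at 7 dpi PLX5622, against 48.5 in sham vehicle, 37.2 at 28 dpi vehicle, 22.1 in sham PLX5622 and 8.60 at 28 dpi PLX5622. The 7 dpi libraries were highest in both diets, although 105 of the 144 UMIs at 7 dpi PLX5622 and 61 of the 252 at 7 dpi vehicle came from 1 cell each. Other late genes were present in the endothelial cluster too, with 143 UMIs of *Ngp*, 136 of *Camp*, 61 of *Mmp8*, 56 of *Ltf* and 30 of *Mmp9*. At 7 dpi vehicle *Ngp* reached 97.3 CPM and *Camp* 83.9 CPM there, and 14 of 351 cells had at least 3 late UMIs, whereas at 7 dpi PLX5622 the 144 UMIs of *Lcn2* were all the late UMIs of the cluster. *Prtn3* was the only early gene above 1 UMI per library in the ependymal cluster, at 7.61 CPM in sham vehicle, 23.3 at 7 dpi, 18.2 at 28 dpi and 29.7, 16.1 and 27.8 CPM in the PLX5622 libraries (sham, 7 dpi and 28 dpi). These rested on 3 to 16 UMIs, with no more than 3 in a cell, and *Elane* was at 0 there in the 6 libraries. Late UMIs in the ependymal cluster, by contrast, sat in single cells: 523 of 550 at 7 dpi vehicle and 278 of 377 at 28 dpi vehicle.

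**Figure D5:**
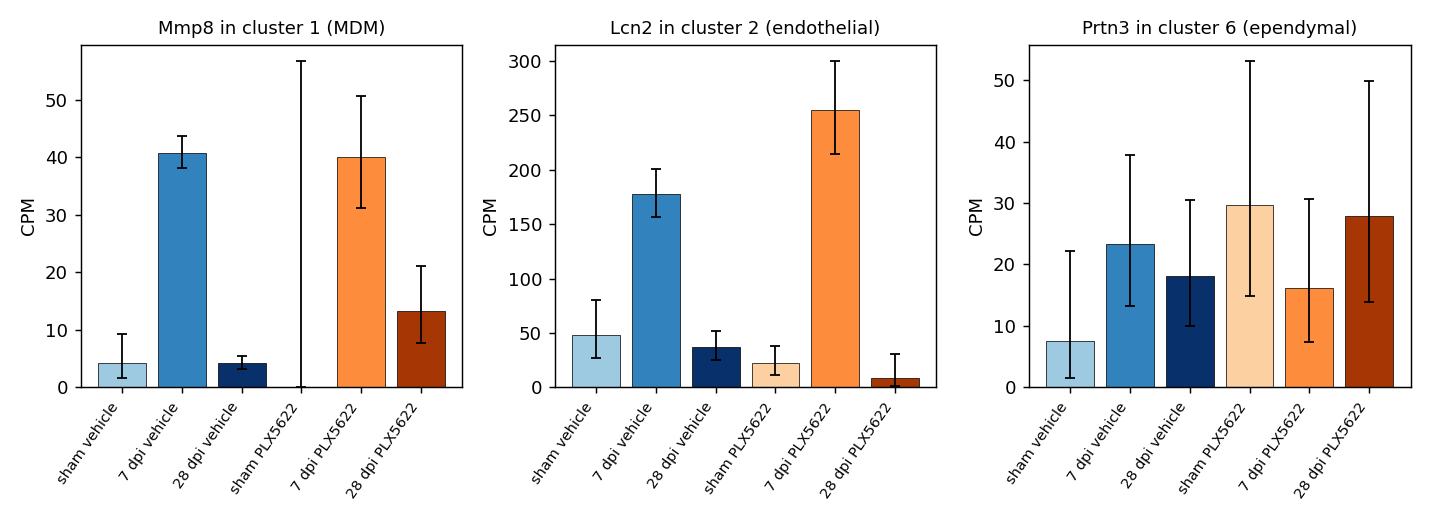
CPM of *Mmp8* in MDMs, *Lcn2* in endothelial cells and *Prtn3* in ependymal cells, 1 bar per library with its exact Poisson 95% interval. The 7 dpi bars of *Mmp8* and *Lcn2* stood above the others of the same diet, and the intervals of *Prtn3* overlapped between the 6 libraries.

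In monocytes the early genes present differed between the days, but the share of cells that held them did not detectably. At 7 dpi vehicle *Prtn3* had 104 UMIs in 56 of 602 cells, with 1 UMI of *Elane*, 0 of *Mpo* and 4 of *Ctsg*. At 28 dpi vehicle all 4 genes were present, with 69 UMIs of *Prtn3*, 44 of *Elane*, 79 of *Mpo* and 62 of *Ctsg*, and 1 cell held 169 of these 254. The early sum was 50.02 CPM at 7 dpi and 398 CPM at 28 dpi, and without the cell of most early UMIs in each library 44.6 and 133 CPM. Cells with at least 3 early UMIs made up 1.5% of monocytes at 7 dpi vehicle (9 of 602 cells, interval 0.69 to 2.82%). At 28 dpi vehicle they made up 1.06% (3 of 284 cells, interval 0.22 to 3.06%), so the level there rested mostly on 3 cells.

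Across 66 groups of 1 cluster and 1 library with at least 20 cells, the early genes followed one another (Pearson's r of log2(CPM + 10) from 0.87 to 0.97 over 6 pairs), as did the late genes (0.82 to 0.99 over 15 pairs), while pairs of an early and a late gene had r from 0.32 to 0.70 (24 pairs). The points share libraries and clusters, so these are descriptions. Of 12842 other genes, those closest to the early sum were *Ms4a3* (0.92), *Fcnb* (0.75), *Chil3* (0.69), *AI839979* (0.64) and *Cebpe* (0.61). Such likeness is over groups and not over cells. Pooled, *Ms4a3* was higher in cluster 8 than in cluster 9 (38.0 against 20.4 CPM). In cluster 8 *Fcnb* (18.4 against 28.3), *Chil3* (883 against 2526) and *Cebpe* (41.1 against 190) were lower. *AI839979* was at 13.8 CPM in cluster 8 and at up to 23.9 CPM outside both clusters. The genes closest to the late sum were *1100001G20Rik* (0.93), *S100a9* (0.92), *Cebpe* (0.91), *S100a8* (0.91) and *Cd177* (0.91). *Cebpe* was on both lists at this setting, but left the early one with log2(CPM + 1) or with groups of at least 50 cells.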

How the data were processed

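The 6 pooled single-cell libraries of mouse spinal cord were read from the deposited table of UMI counts, which the authors made with Cell Ranger on GRCm38/mm10 and clustered in Seurat. The submitters' processing notes also list STAR 2.4.0 and HTSeq 0.6.1, and bulk samples of the series were not analysed here. The deposited counts are raw, and cluster numbers and libraries came from the deposited cell annotation. The stated filters were under 20% mitochondrial reads, 200 to 3000 genes a cell and genes in at least 3 cells. Of the cells deposited, 716 exceeded 3000 genes, and genes rarely seen in a library were at 0 there.

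UMIs were summed per cluster and library with Python 3.11.15, numpy 2.4.6, scipy 1.17.1 and pandas 2.3.3 and divided by the total (CPM). Levels have exact Poisson and ratios exact conditional binomial 95% intervals. A count of 0 was set to 3 UMIs for a bound. Ratios were counted for genes with at least 100 UMIs, at a log2 size of 1. No test between conditions was made. Named genes were the members, genes of the lists (granule partners, transcription factors, blood progenitor, mature neutrophil, cell cycle, other granulocytes, B cell precursor, erythroid, macrophage and neural progenitor) and the 5 genes most like each sum. Members and lists were chosen with earlier results of these data known. Doublets were kept in the main values. As an alternative, the cells with the highest Scrublet scores (scanpy 1.11.5) in each library were called doublets. Their number was fixed beforehand by a rate that rose with the cells of the library, 5.95% at 7 dpi vehicle and 7.88% at 28 dpi vehicle. The called cells included 13 and 22 of cluster 8 and 15 and 11 of cluster 9 in the 7 and 28 dpi vehicle libraries. Other alternatives used edgeR 4.0.16 and DESeq2 1.42.0 factors in R 4.3.3. Scripts were tested on simulated data.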

Additional observations from a re-analysis of the deposited data

How the results depend on the processing

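With 1 library a condition, intervals cover counting error, so a moved value is one outside that interval, and in each case the cause was not tested. The alternatives were edgeR's TMM and DESeq2's size factors over the libraries of a cluster, cells weighted alike, cells with at least 500 genes, no called doublets, cells thinned to 1000 UMIs, totals without the members and, chosen after seeing the data, no cell of most UMIs of a list in each library (no top cell). Early CPM in cluster 8 (633) became 712 (TMM), 727 (cells weighted alike), 659 (no called doublets), 724 (thinning), 411 (no top cell), and in cluster 9 (356) 401 (TMM), 823 (cells weighted alike), 204 (cells with at least 500 genes), 144 (thinning), 161 (no top cell). Late CPM in cluster 8 (6410) became 7218 (TMM), 6594 (size factors), 6899 (cells weighted alike), 6532 (no called doublets), 6776 (thinning), 4949 (no top cell), and in cluster 9 (48718) 54870 (TMM), 52182 (size factors), 37298 (cells weighted alike), 52105 (cells with at least 500 genes), 53608 (no called doublets), 47967 (thinning), 51232 (totals without members), 45859 (no top cell). In cluster 8, 7 dpi against sham vehicle, the log2 ratio of the early sum became -2.87 (TMM), -2.53 (cells weighted alike), -2.49 (thinning), -2.75 (no top cell), and that of the late sum -3.16 (TMM), -3.34 (size factors), -3.06 (cells weighted alike), -3.45 (no called doublets), -3.11 (thinning), -3.47 (totals without members), -3.32 (no top cell). In cluster 8, 28 dpi against sham vehicle, the log2 ratio of the early sum became -3.30 (TMM), -3.67 (thinning), and that of the late sum -3.54 (TMM), -3.39 (cells weighted alike), -3.52 (thinning), -3.76 (totals without members), -3.60 (no top cell). For the late sum of cluster 9, 7 dpi vehicle against sham vehicle (-0.63) became -0.71 (TMM), -0.67 (size factors), -0.29 (cells weighted alike), -0.51 (cells with at least 500 genes), -0.43 (no called doublets), 0.10 (thinning), -0.66 (totals without members), -0.55 (no top cell). For the late sum of cluster 9, 28 dpi vehicle against sham vehicle (-0.13) became -0.20 (TMM), -0.058 (size factors), 0.39 (cells weighted alike), -0.0079 (cells with at least 500 genes), 0.047 (no called doublets), 0.66 (thinning), -0.021 (no top cell). For the late sum of cluster 9, sham PLX5622 against sham vehicle (-0.077) became -0.33 (TMM), -0.27 (cells weighted alike), -0.37 (thinning), -0.43 (no top cell). For the late sum of cluster 9, 7 dpi PLX5622 against 7 dpi vehicle (-4.17) became -5.25 (TMM), -4.85 (size factors), -3.69 (cells weighted alike). For the late sum of cluster 9, 28 dpi PLX5622 against 28 dpi vehicle (-0.032) became -0.37 (cells weighted alike), -0.13 (cells with at least 500 genes), -0.22 (no called doublets), -1.05 (thinning), -0.24 (no top cell). The share of early UMIs in clusters 8 and 9 (84.1%) became 64.8 (cells weighted alike), 89.1 (cells with at least 500 genes), 82.1 (thinning), 41.2 (the mean of the libraries), and of late UMIs (95.7%) 96.2 (cells weighted alike), 95.5 (cells with at least 500 genes), 96.3 (no called doublets), 96.3 (thinning), 84.1 (the mean of the libraries), 96.6 (no top cell). Every alternative kept both cluster 8 sums lower after SCI, and the late sum of cluster 9 lower at 7 dpi on PLX5622 than on vehicle, by a log2 size above 1. Granule-bearing cells of cluster 8 numbered 87 at a minimum of 3 UMIs, 94 at 2 and 79 at 5, the alternatives run for that count. Of the 10 genes closest to the sums, 8 were kept with a pseudocount of 1 and 8 with groups of at least 50 cells, where 3 of the 5 for the early sum were kept. Of 374 alternatives for 47 single-gene ratios, 34 had the opposite sign, 0 of them where the reported size was at least 1. No paired analysis was possible because each condition was 1 pooled library and no result came from a test.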
